A study of Mus musculus with 4 samples.

Results

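Enteric neurons and enteric glia were followed through 30 genes, 21 of neurons and 9 of glia, taken by symbol from the gene files of mouse colon. All 30 had a row, out of 23074 gene symbols in the series. RNA came from the first 2 cm of colon past the caecum of 6-week-old mice of mixed strain. The 2 control libraries had the genotype Nkx2.2flox/+, with a single floxed allele of Nkx2-2, which encodes an enteroendocrine transcription factor, and without Cre. The 2 mutant libraries had the genotype Nkx2.2flox/flox; Villin-Cre/+, in which the Villin promoter drives Cre in the gut epithelium. All 4 libraries therefore carry at least 1 floxed allele, no Cre-only library is among them, and whether 2 libraries of 1 genotype stem from different mice is not in the labels.

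Enteric neurons and glia derive from the neural crest and form the myenteric plexus, between the muscle layers, and the submucosal plexus, under the mucosa. Excitatory motor neurons release acetylcholine and tachykinins, and inhibitory motor neurons release nitric oxide and vasoactive intestinal peptide (VIP). Enteric glia surround the neurons and depend on the transcription factor SOX10. Neither cell type belongs to the epithelium in which Villin-Cre acts.

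Markers of both plexus cell types were detected in every library. Prph, the peripherin of peripheral neurons, stood at 4.82 to 8.66 FPKM (a fragment count corrected for transcript length and library total), Snap25, a protein of the synaptic release machinery, at 1.87 to 5.82 FPKM and the glial transcription factor gene Sox10 at 0.628 to 1.72 FPKM. How much of the Snap25 RNA came from enteroendocrine cells was not tested. Smooth muscle was in each library as well, with the muscle myosin gene Myh11 at 90.8 to 135 FPKM. The targeted gene Nkx2-2 stood at 0.724 and 0.609 FPKM in the controls and at 0.125 and 0.351 FPKM in the mutants. Tph1, the serotonin-synthesis enzyme of enteroendocrine cells, stood at 15.4 and 18.8 FPKM in the controls and at 0.354 and 1.40 FPKM in the mutants. Mutant 1 was the shallowest library, with 0.464 of the depth of control 1, beside 1.03 and 1.13 for the other two, so its low values rest on the fewest fragments.

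Most neuron and glia genes stood lower in the mutants than in the controls, by amounts that did not pass the test. Of the 19 neuron members tested (mean of at least 0.5 FPKM), 0 passed in either direction at a limma adjusted p of 0.05, and 17 had a log2 change below 0. Of the 8 glia members tested, 0 passed and all 8 had a change below 0. Over all 13997 tested genes 0.0643% passed, 0.0357% higher and 0.0286% lower, and 82.6% had a change below 0, so a majority of lower genes is the background of these libraries. Calculated as log2(FPKM + 0.5), a scale that shrinks changes of low genes, the median change was −0.42 for the neuron members and −0.47 for the glia members, against −0.17 for all tested genes. At an unadjusted p below 0.05, 3 neuron and 3 glia members were lower and 0 were higher, where 4.12% of all tested genes were lower and 0.7% higher. After median ratio rescaling of the libraries, which brings the median of all tested genes to −0.01, 15 of 19 neuron and 8 of 8 glia members lay below 0, beside 51.4% of all tested genes, and 3 members had an unadjusted p below 0.05, beside 1.87% lower among all tested genes. Before rescaling these were Uchl1, Tubb3 and Phox2a among neuron members and Gpr37l1, Sox10 and Gfap among glia members, and after it Uchl1, Phox2a and Gpr37l1. In the authors' deposited table, made from normalized counts, 0 of the 30 members had an adjusted p below 0.05 (0.0384% of all genes did) and 0 had an unadjusted one, and the smallest unadjusted p was 0.28. That table puts 24 of the 30 members below 0, beside 39% of all its genes.

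**Figure D1:**
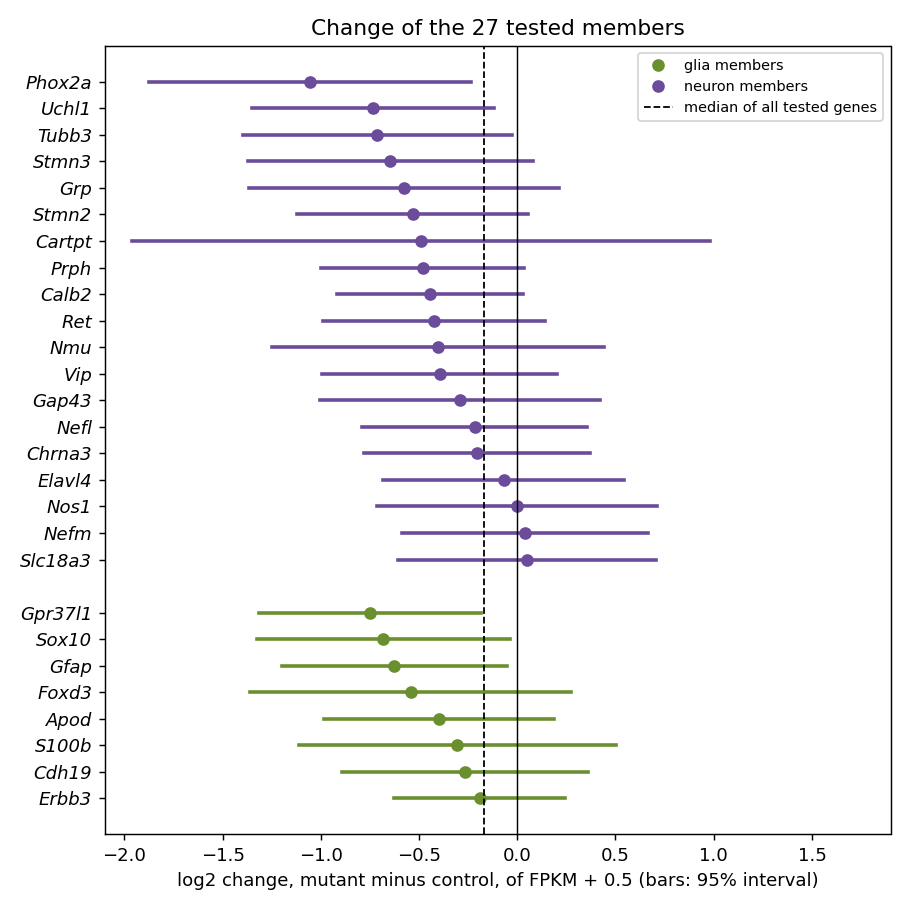
Log2 change of FPKM + 0.5, mutant minus control, for the 19 neuron and 8 glia members tested; points are the limma estimates, bars their 95% intervals, and the dashed line the median of all tested genes at −0.17. The intervals of 6 members lie wholly below 0, those of Phox2a, Uchl1, Tubb3, Gpr37l1, Sox10 and Gfap, and none of them passed after adjustment.

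Most neuron members had their lowest value in mutant 1, as did most of all tested genes. Of the 19 tested neuron members, 14 had their lowest value in mutant 1 and 2 in mutant 2, beside 66.2% of all tested genes with their lowest value in mutant 1. The neuron median was −0.66 with mutant 1 as the lone mutant and −0.18 with mutant 2 as the lone mutant, where the median of all tested genes was −0.28 and −0.07. For glia, 4 of the 8 tested members were lowest in mutant 1 and the other 4 in mutant 2, and none was lowest in a control. The glia median was −0.40 with mutant 1 and −0.55 with mutant 2 as the lone mutant. Both mutants lay below both controls in 9 of 19 neuron members and in 6 of 8 glia members, and this held for 35.1% of all tested genes. Both mutants lay above both controls in 0 of the 27 tested members, against 3.39% of all tested genes. Whether neuron and glia members differed from each other was not tested. In RNA from whole tissue, fewer cells of a type and less RNA per cell cannot be told apart.

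**Figure D2:**
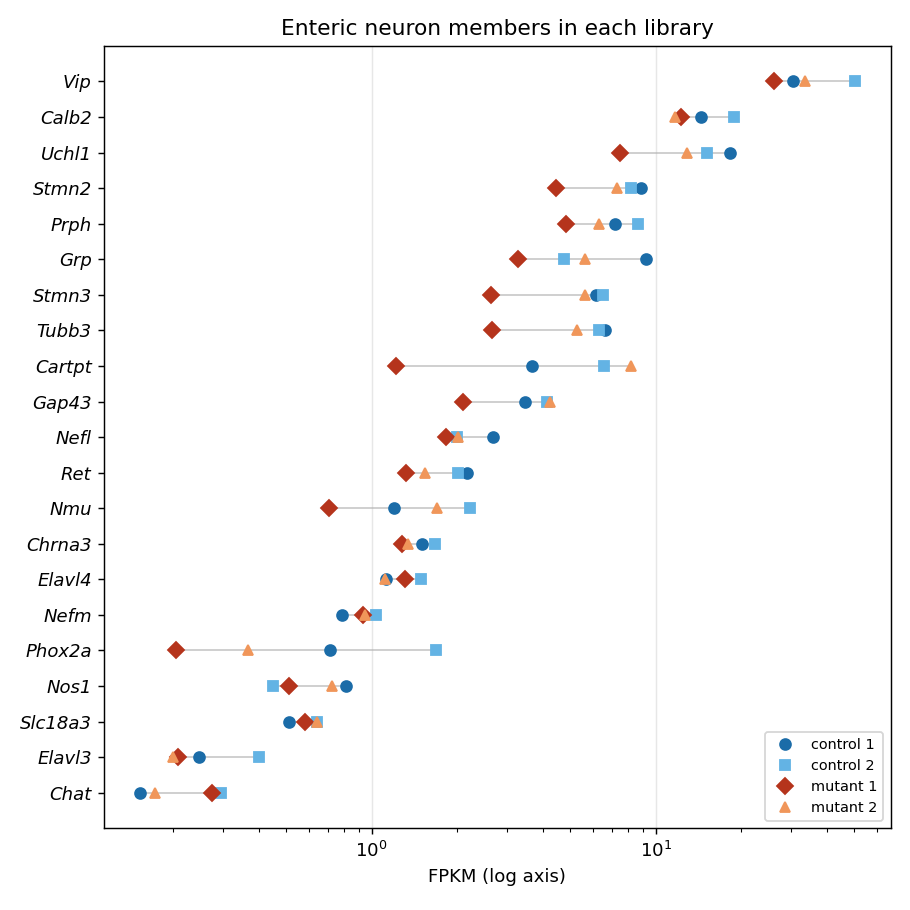
FPKM of the 21 neuron members in each library on a log axis, ordered by mean level; symbols mark the 4 libraries and grey lines span their range. Vip, Calb2 and Uchl1 are the most abundant. Mutant 1 (dark red diamonds) is the lowest library for most members, as for 66.2% of all tested genes, while mutant 2 often lies near the controls.

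The structural genes shared by all enteric neurons gave the broadest view of the plexus. Uchl1, the neuronal deubiquitinase known to histologists as PGP9.5, stood at 18.3 and 15.2 FPKM in controls 1 and 2 and at 7.47 and 12.8 FPKM in mutants 1 and 2. Both mutant values lay below both controls, and the log2 change was −0.73 (SE 0.27, limma adjusted p = 0.825, unadjusted 0.0248). Tubb3, the neuron-specific beta tubulin, stood at 6.62 and 6.34 FPKM in the controls and at 2.64 and 5.27 FPKM in the mutants. The controls were almost equal and mutant 1 was far below mutant 2, with a log2 change of −0.71 (SE 0.30, adjusted p = 0.825, unadjusted 0.0433 by limma). Without mutant 1 the log2 change was −0.36 for Uchl1 and −0.27 for Tubb3. UCHL1 is also known from enteroendocrine cells.

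The stathmins, which destabilise microtubules in growing neurites, were lowest in mutant 1, with mutant 2 between it and both controls. Stmn2 stood at 8.89 and 8.16 FPKM in the controls and at 4.47 and 7.33 FPKM in the mutants. Stmn3 stood at 6.16 and 6.54 FPKM in the controls and at 2.62 and 5.63 FPKM in the mutants. For Stmn2 and Stmn3, mutant 1 was at 52.4% and 41.3% of the control mean and mutant 2 at 86.0% and 88.6%. Gap43, a growth cone protein, stood at 3.47 and 4.15 FPKM in the controls and at 2.10 and 4.25 FPKM in the mutants, so that mutant 2 was the highest of all libraries. Its log2 change of −0.29 turned to 0.14 without mutant 1.

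Genes of intermediate filaments differed among themselves. Prph stood at 7.20 and 8.66 FPKM in the controls and at 4.82 and 6.30 FPKM in the mutants, with no overlap between the groups and a log2 change of −0.48 (SE 0.23, limma adjusted p = 0.825). The light neurofilament Nefl stood at 2.67 and 2.00 FPKM in the controls and at 1.84 and 2.01 FPKM in the mutants. The medium neurofilament Nefm stood at 0.788 and 1.03 FPKM in the controls and at 0.936 and 0.951 FPKM in the mutants, both between the controls. Nefl and Nefm are neighbours on chromosome 14 (mm9, chr14:68701941-68705794 and chr14:68737602-68743061), and both groups overlapped in each of them.

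The Elavl genes encode the Hu proteins, RNA-binding proteins whose antibody stain is the usual count of enteric neurons. Elavl4 stood at 1.12 and 1.49 FPKM in the controls and at 1.31 and 1.12 FPKM in the mutants, with full overlap and a log2 change of −0.07 (95% interval −0.68 to 0.54). Elavl3, under the 0.5 FPKM minimum and not tested, stood at 0.248 and 0.403 FPKM in the controls and at 0.208 and 0.200 FPKM in the mutants. In mutant 1 these Hu values rest on 30.8 implied fragments for Elavl4 and 7 for Elavl3. The SE of Elavl4 was 0.27, beside 0.27 for Uchl1 and 0.30 for Tubb3, which rests on 28 implied fragments in mutant 1. The interval of Elavl4 leaves room for a change of either sign.

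Signals and factors of the enteric neural lineage came next. Ret, the receptor through which GDNF keeps neural crest cells alive and migrating, stood at 2.16 and 2.01 FPKM in the controls and at 1.32 and 1.54 FPKM in the mutants. The groups did not overlap, and the log2 change was −0.42 (SE 0.25, limma adjusted p = 0.825). Phox2a, a homeodomain factor of autonomic neurons, stood at 0.712 and 1.68 FPKM in the controls and at 0.205 and 0.368 FPKM in the mutants. In the same order these values rest on 14.1, 39.1, 1.3 and 7.1 implied fragments. It had the lowest log2 change of the 27 tested members, −1.06 (SE 0.36, limma adjusted p = 0.825, unadjusted 0.0176), although the controls themselves lay far apart. Without control 1 the log2 change was −1.48 and passed (limma adjusted p = 0.0319, among 0.379% of all genes that were lower there), and without control 2 it was −0.63. The authors' deposited table lists Phox2a with a mean of 20.4 normalized counts for controls and 5.39 for mutants.

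Genes of the transmitters separate the neuron classes. The sequences before the starts of Vip, Cartpt and Nos1 are shown because each holds the letters of the cAMP response element, the site bound by CREB, or of its core. The full element is TGACGTCA and the core TGACG, searched on both strands in the 250 bases before each RefSeq start on mm9. Capitals mark these elements. The windows are chr10:4707324-4707573 on the minus strand for Vip, chr13:100670639-100670888 on the minus strand for Cartpt and chr5:118316878-118317127 on the plus strand for Nos1, each written 5′ to 3′ toward the start.
Vip: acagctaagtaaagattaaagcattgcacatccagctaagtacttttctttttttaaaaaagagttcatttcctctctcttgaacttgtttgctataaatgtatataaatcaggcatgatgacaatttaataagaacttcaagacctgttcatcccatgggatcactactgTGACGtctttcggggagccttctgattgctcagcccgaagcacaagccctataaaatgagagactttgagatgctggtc
Cartpt: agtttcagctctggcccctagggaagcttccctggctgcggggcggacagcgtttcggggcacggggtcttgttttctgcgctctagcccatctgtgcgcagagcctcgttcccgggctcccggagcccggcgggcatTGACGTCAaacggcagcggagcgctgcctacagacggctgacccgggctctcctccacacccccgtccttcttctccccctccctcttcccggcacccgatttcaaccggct
Nos1: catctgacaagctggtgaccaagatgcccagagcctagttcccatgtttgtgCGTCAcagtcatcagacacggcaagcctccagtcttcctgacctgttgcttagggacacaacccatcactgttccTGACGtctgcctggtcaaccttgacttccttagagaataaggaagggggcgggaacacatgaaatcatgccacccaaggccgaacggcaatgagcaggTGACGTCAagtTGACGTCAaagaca
The core lies 79 bases before the start of Vip, the full element 112 bases before that of Cartpt, and 2 full elements 25 and 14 bases before that of Nos1. A full element was in 3 of 30 member windows (Cartpt, Nos1 and the glial gene Foxd3) and in 2.09% of all 23785 windows. The core, which overlaps the full element, was in 10 of 30 and in 20.5%. The 30 member windows cover 28 members, with several windows for Elavl4 and none for Grp and Slc18a3. A match is a description of these letters and not a bound site.

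Vip was the most abundant neuron member, at 30.4 and 50.2 FPKM in the controls and 26.2 and 33.5 FPKM in the mutants. Mutant 2 lay between the controls, and the log2 change was −0.40 (95% interval −0.99 to 0.20). Nos1, the neuronal nitric oxide synthase of the same inhibitory neurons, stood at 0.810 and 0.451 FPKM in the controls and at 0.513 and 0.724 FPKM in the mutants, both inside the range of the controls. Its log2 change was −0.00 (95% interval −0.72 to 0.71), an interval that leaves room for a change of either sign.

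Cartpt, which encodes the CART peptide of some inhibitory neurons and interneurons, had the largest standard error of the 27 tested members. It stood at 3.66 and 6.60 FPKM among controls, while mutant 1 stood at 1.22 FPKM and mutant 2 at 8.19 FPKM. The mutants lay on either side of both controls, and the value of mutant 1 rests on 3.2 implied fragments. The log2 change of −0.49 (SE 0.64) became 0.68 without mutant 1 and −1.66 without mutant 2.

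The cholinergic genes Slc18a3 and Chat overlapped between the groups. Slc18a3, the vesicular acetylcholine transporter, stood at 0.512 and 0.640 FPKM in the controls and at 0.583 and 0.642 FPKM in the mutants, with a log2 change of 0.05 (95% interval −0.61 to 0.71). Chat, the acetylcholine-synthesising enzyme, was not tested and stood at 0.153 and 0.294 FPKM in the controls and at 0.275 and 0.173 FPKM in the mutants. Slc18a3 (chr14:33275623-33278036) lies inside the Chat gene (chr14:33221389-33279095) on mm9, the arrangement known as the cholinergic gene locus, so reads of the overlap could be split uncertainly. Chrna3, a nicotinic acetylcholine receptor subunit of autonomic ganglia, stood at 1.50 and 1.68 FPKM in the controls and at 1.28 and 1.35 FPKM in the mutants, which did not overlap but had a log2 change of −0.21 (SE 0.25).

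Of the remaining peptide and calcium-binding members, Calb2, the calretinin of excitatory motor neurons and interneurons, stood at 14.5 and 18.8 FPKM in the controls and at 12.3 and 11.7 FPKM in the mutants. The groups did not overlap, and the mutants were alike, at 73.8% and 70.3% of the control mean (log2 change −0.45, SE 0.21, limma adjusted p = 0.825). Grp, gastrin-releasing peptide, stood at 9.25 and 4.77 FPKM in the controls and at 3.28 and 5.62 FPKM in the mutants, and the groups overlapped. Nmu, the neuromedin U that enteric neurons send to innate lymphoid cells, stood at 1.20 and 2.23 FPKM in the controls and at 0.706 and 1.70 FPKM in the mutants, with 3 implied fragments behind the value of mutant 1. Its log2 change of −0.41 turned to 0.03 without mutant 1.

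**Figure D3:**
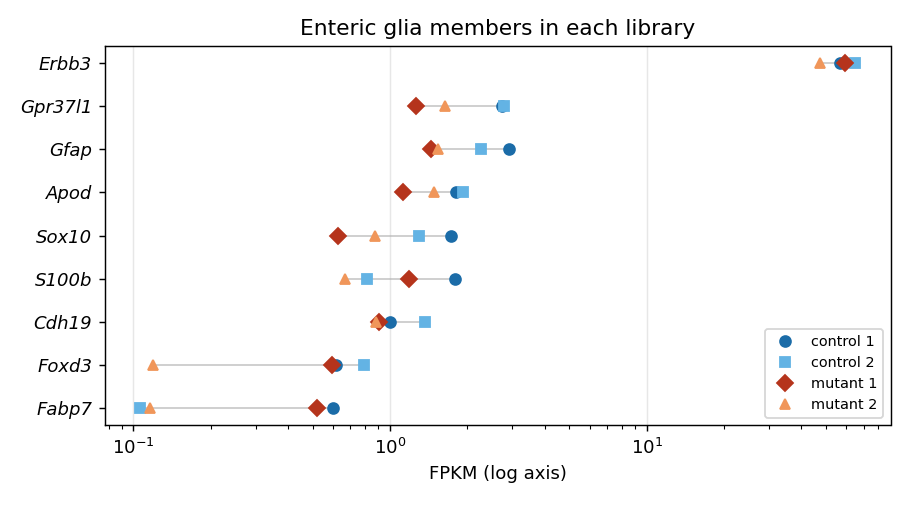
FPKM of the 9 glia members in each library on a log axis, ordered by mean level, drawn as for the neurons. Erbb3 stands apart from the rest at 47.5 to 64.7 FPKM, and for Gpr37l1, Gfap, Apod, Sox10, Cdh19 and Foxd3 both mutants lie left of both controls.

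The glia members with the smallest unadjusted p were Gpr37l1, Gfap and Sox10. Sox10, the transcription factor of the lineage, stood at 1.72 and 1.29 FPKM in the controls and at 0.628 and 0.874 FPKM in the mutants, with a log2 change of −0.68 (SE 0.28, limma adjusted p = 0.825, unadjusted 0.0401). Both mutants were below both controls, and the value of mutant 1 rests on 11 implied fragments. Gpr37l1, an orphan receptor of glia, stood at 2.73 and 2.79 FPKM in the controls and at 1.26 and 1.64 FPKM in the mutants. It had the smallest unadjusted p of all members, 0.0153 (log2 change −0.75, SE 0.25, limma adjusted p = 0.825). Gfap, the glial filament, stood at 2.92 and 2.26 FPKM in the controls and at 1.44 and 1.54 FPKM in the mutants, again without overlap (log2 change −0.63, SE 0.25, limma adjusted p = 0.825). After median ratio rescaling the unadjusted limma p was 0.0240 for Gpr37l1, 0.0615 for Sox10 and 0.0626 for Gfap.

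The other glia members spread more. S100b, a calcium-binding protein of glia, stood at 1.78 and 0.811 FPKM in the controls and at 1.18 and 0.665 FPKM in the mutants, which overlapped. Cdh19, a cadherin of Schwann cell precursors, stood at 1.00 and 1.36 FPKM in the controls and at 0.904 and 0.882 FPKM in the mutants. Apod, a lipid carrier that fibroblasts also make, stood at 1.81 and 1.92 FPKM in the controls and at 1.12 and 1.48 FPKM in the mutants. Neither Cdh19 nor Apod overlapped between groups, with log2 changes of −0.27 (SE 0.27) and −0.40 (SE 0.26). Foxd3, a neural crest factor, stood at 0.613 and 0.788 FPKM among controls, and at 0.595 FPKM for mutant 1 and 0.119 FPKM for mutant 2, the last from 4 implied fragments. Fabp7, a fatty acid-binding protein of radial glia, rested on 5, 1, 2 and 1 implied fragments and was too low to compare.

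Erbb3, the neuregulin receptor on which Schwann cells and glial precursors depend, stood at 56.8 and 64.7 FPKM in the controls and at 59.1 and 47.5 FPKM in the mutants, with mutant 1 between the controls. It was 50.5 times the FPKM of Sox10 over the means of the 4 libraries. ERBB3 is also known from gut epithelium, and Erbb2, which encodes its partner, stood at 35.1 to 44.6 FPKM. Which cells the Erbb3 RNA came from was not tested. The summed FPKM of all 9 glia members, most of it Erbb3, was 91.5% of the control mean in mutant 1 and 75.1% in mutant 2. The summed FPKM of the 8 other glia members was 13.2 and 11.3 in the controls and 7.65 and 7.31 in the mutants, 62.4% and 59.7% of the control mean.

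Further neural genes, some of them also made by other cells, came from 5 lists. Of 12 tested neuron structure and synapse genes 11 had a change below 0, of 10 tested transmitter and peptide genes 9, of 12 tested receptor genes 10, of 17 tested genes of GDNF, endothelin and neuregulin signalling and enteric lineage factors 12, and of 15 tested glia and Schwann cell genes 13. None passed in limma in either direction (unadjusted p below 0.05, 1, 4, 0, 0 and 2 lower, and Gfra3, which is on both of the last lists, higher). Over all tested genes 82.6% had a change below 0, beside 70.6% to 91.7% in these lists, so those counts are near the background. At that unadjusted p 4.12% of all tested genes were lower and 0.7% higher. The 4 of 10 transmitter and peptide genes lay furthest above the lower share, and 1 of 12 and 2 of 15 lay above it too. Gfra3 put both of its lists above 0.7%. No list was tested as a whole. The medians were −0.38, −0.40, −0.28, −0.17 and −0.26, beside −0.17 for all tested genes. The summed FPKM of the glia and Schwann cell list was 88.0% of the control mean in mutant 1 and 100.2% in mutant 2. Both lay between the controls, at 74.8% and 125.2%, and much of that sum was Pmp22, at 148 to 327 FPKM. The 4 transmitter and peptide genes that were lower at an unadjusted limma p below 0.05 were Npy, Tac1, Scg2 and Ddc. Npy rests on 2 implied fragments in mutant 1 and 0 in mutant 2. Symbols without a row were Map2 of the first list, and genes under the filter were not tested.

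Some glia and lineage genes of these lists are given singly. Art3, which encodes a membrane-anchored relative of the ADP-ribosyltransferases, stood at 8.29 and 7.78 FPKM in the controls and at 4.75 and 4.61 FPKM in the mutants (log2 change −0.72, limma adjusted p = 0.825, unadjusted 0.0070). Lgi4, a secreted ligand that glia need for myelination and maturation, stood at 2.99 and 2.06 FPKM in the controls and at 1.17 and 1.65 FPKM in the mutants. Hand2, a neural crest factor that smooth muscle also makes, stood at 4.36 and 4.18 FPKM in the controls and at 1.34 and 3.78 FPKM in the mutants. In these 3 genes, chosen after their values were seen, both mutants lay below both controls, as in 7 of 17 tested lineage genes, 7 of 15 tested glia genes and 35.1% of all tested genes.

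Gfra3, the co-receptor for artemin, went the other way, at 1.75 and 1.55 FPKM in the controls and 2.65 and 3.18 FPKM in the mutants. Both mutants were above both controls, and the log2 change was 0.66 (SE 0.24, limma adjusted p = 0.825, unadjusted 0.0244). The co-receptors that pair with RET for GDNF and neurturin did not show this: Gfra1 stood at 1.06 and 1.60 FPKM in the controls and at 0.901 and 0.982 FPKM in the mutants, and Gfra2 at 2.06 and 1.14 FPKM in the controls and at 1.10 and 1.01 FPKM in the mutants. The ligand gene Gdnf, made by muscle and glia, stood at 1.61 and 1.03 FPKM in the controls and at 0.780 and 1.03 FPKM in the mutants.

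**Figure D4:**
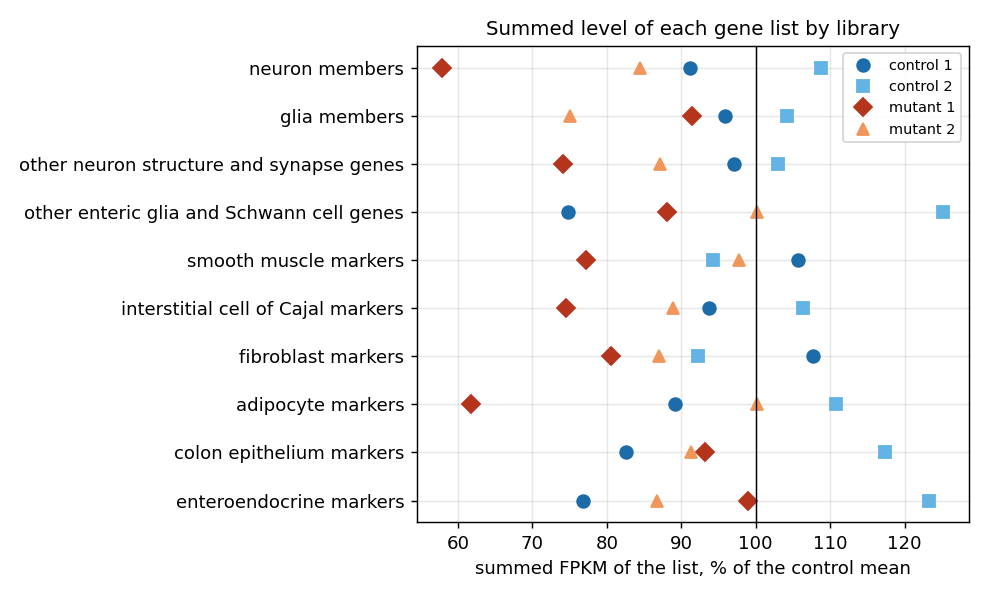
Summed FPKM of each gene list in each library, as a percent of the mean of the 2 controls (vertical line at 100%); symbols mark the 4 libraries. Mutant 1 is the lowest library for the neuron members, other neuron structure and synapse genes, smooth muscle, interstitial cells of Cajal, fibroblasts and adipocytes. Its total FPKM is also the lowest. Mutant 2 is within the range of the controls for smooth muscle, adipocytes, colon epithelium, enteroendocrine markers and other enteric glia and Schwann cell genes. So is mutant 1 for the epithelium, enteroendocrine and other glia lists.

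Markers of smooth muscle, interstitial cells of Cajal, fibroblasts and adipocytes also had their lowest sums in mutant 1. So did the library as a whole, with a total FPKM of 545158 in mutant 1, 605022 in mutant 2, and 629410 and 611496 in the controls. Of all tested genes, 66.2% had their lowest value in mutant 1. The 12 smooth muscle markers summed to 2078 and 1855 FPKM in the controls and to 1519 and 1921 FPKM in the mutants, and 0 of 12 passed, with a median log2 change of −0.28. Relative to the control mean, mutant 1 held 77.2% of the smooth muscle sum, 74.5% of that of the 7 markers of interstitial cells of Cajal, the pacemakers beside the plexus, 80.5% of that of the 9 fibroblast markers and 61.7% of that of the 7 adipocyte markers. For the neuron members the share was 57.8% in mutant 1 and 84.5% in mutant 2, and without Vip, which makes up much of the sum, 54.7% and 85.1%. Mutant 2 held 97.7% of the smooth muscle, 88.8% of the Cajal cell, 87.0% of the fibroblast and 100.1% of the adipocyte sum. Epithelial markers with a row (9 of 10) summed to 93.2% and 91.3% in the mutants, between the controls at 82.6% and 117%, and Car1 at a mean of 17693 FPKM made up most of that sum. The part of muscle content, depth or the other cell types in the values of the neuron and glia members was not tested.

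Enteroendocrine cells share genes with neurons, and theirs were the marker genes that passed. Of 9 tested enteroendocrine markers 4 passed as lower, Tph1, Chga, Chgb and Insl5, and 0 as higher. Of all tested genes 0.0286% passed as lower and 0.0357% as higher. The other 5 tested markers had a change above 0, and the median of the 9 was 0.20. After median ratio rescaling none of the 4 passed, with limma adjusted p-values of 0.16 for Tph1 and Insl5, 0.21 for Chga and 0.34 for Chgb. In the authors' deposited table the adjusted p was below 0.05 for Tph1 and Chgb, 0.524 for Chga and 1 for Insl5. Pyy, the peptide YY of L cells, stood at 57.2 and 96.7 FPKM in the controls and at 198 and 166 FPKM in the mutants, higher in both mutants with a limma adjusted p of 0.404. Tac1, which encodes substance P in excitatory motor neurons and in serotonin cells alike, stood at 21.7 and 16.6 FPKM in the controls and at 6.94 and 13.0 FPKM in the mutants. Scg2, a granin of neurons and endocrine cells, stood at 8.31 and 8.71 FPKM in the controls and at 4.08 and 6.73 FPKM in the mutants. In both genes both mutants lay below both controls, as in 35.1% of all tested genes, and the limma adjusted p was 0.825. How much of Tac1, Scg2, Snap25 and Uchl1 came from enteroendocrine cells was not tested.

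The isoform files hold more than 1 RefSeq transcript for 5 members, which differ between libraries in how the estimate is divided. Elavl4 has 4 transcripts from 3 starts, shown because the transcript of the far start was above 0.001 FPKM only in the controls. NM_001163397 begins at base 110024516 of chromosome 4 on mm9, NM_001038698 at 109960116, and NM_001163399 and NM_010488 at 109959439, all on the minus strand. None of these starts matched a transcript start of the GENCODE annotation to the base. The 250 bases before the starts are chr4:110024517-110024766, chr4:109960117-109960366 and chr4:109959440-109959689, written toward the start, with capitals for matches to TGACG, the E-box CAGCTG, the homeodomain core TAATTA and the SOX cores ACAAAG and ACAATG on either strand.
NM_001163397: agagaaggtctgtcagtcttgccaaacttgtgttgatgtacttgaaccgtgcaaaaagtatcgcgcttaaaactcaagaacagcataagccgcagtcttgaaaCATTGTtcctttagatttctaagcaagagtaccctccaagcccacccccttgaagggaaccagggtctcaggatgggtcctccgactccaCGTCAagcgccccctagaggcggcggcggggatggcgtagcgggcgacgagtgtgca
NM_001038698: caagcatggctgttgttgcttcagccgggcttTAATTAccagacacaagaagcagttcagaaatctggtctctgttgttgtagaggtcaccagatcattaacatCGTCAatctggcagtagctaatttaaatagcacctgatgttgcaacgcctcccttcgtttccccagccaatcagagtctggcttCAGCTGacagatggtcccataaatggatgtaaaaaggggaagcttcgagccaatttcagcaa
NM_001163399: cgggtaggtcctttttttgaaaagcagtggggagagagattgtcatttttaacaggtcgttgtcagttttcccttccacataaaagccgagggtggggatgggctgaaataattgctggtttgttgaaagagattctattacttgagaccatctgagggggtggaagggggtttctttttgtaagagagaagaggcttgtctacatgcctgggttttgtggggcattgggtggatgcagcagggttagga
An E-box was in 12.4% of all windows, the homeodomain core in 4.24%, and the SOX cores in 14.9% and 8.75%. In the controls NM_001163397 stood at 0.568 and 0.539 FPKM, 50.7% and 36.2% of the gene. In both mutants it was listed under 0.001 FPKM, written here as 0, with upper 95% bounds of 0.0805 and 0.0362 FPKM. NM_001038698 stood at 0.552 and 0.740 FPKM in the controls and at 0.475 and 1.12 FPKM in the mutants. NM_001163399 was listed at 0 in control 1 and mutant 2, at 0.209 FPKM in control 2 and at 0.833 FPKM in mutant 1. These transcripts share 1 locus, their division rests on few fragments, and it had no test.

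**Figure D5:**
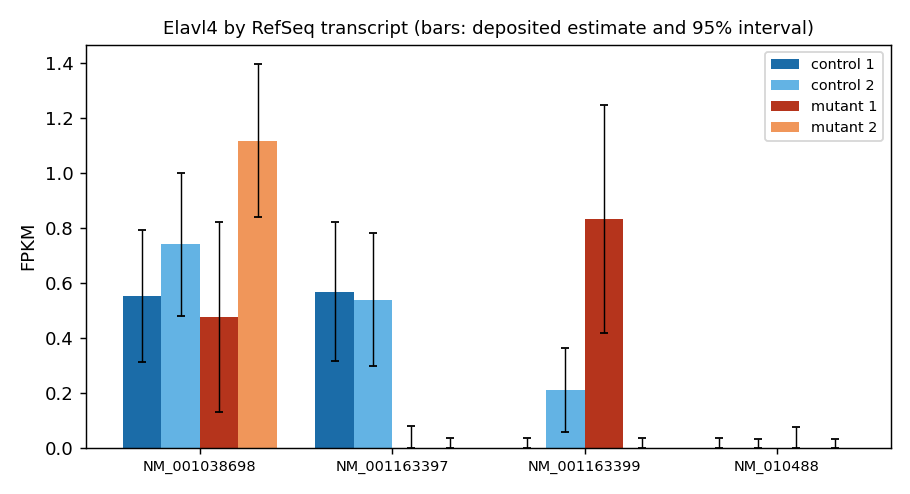
Deposited FPKM of the 4 Elavl4 transcripts in each library, with the deposited 95% interval. NM_001163397, the transcript from the far start, is seen in both controls (0.568 and 0.539 FPKM) and listed at 0 in both mutants, while NM_001038698 is seen in all 4 libraries.

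Among the other members with several transcripts, Ret had NM_001080780 as its leading transcript in 3 libraries, with 82.7% and 66.9% of the gene in the controls and 70.9% in mutant 2, and 34.7% in mutant 1. Prph was mostly NM_001163589, with 87.1% to 97.9% of the gene in each library, and NM_013639 was above 0 only in mutant 1, at 0.622 FPKM. Gfap was mostly NM_010277, with 94.9% and 94.0% in the controls and 76.7% and 100% in the mutants. For Cartpt, NM_013732 was at 0 in mutant 1 and made up 26.1%, 20.5% and 28.7% of the gene in control 1, control 2 and mutant 2. The division of Ret in mutant 1 rests on 55.4 implied fragments for the whole gene.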

How the data were processed

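RNA-seq of 4 colon libraries (2 control, 2 mutant) was measured after TruSeq preparation, per the labels' protocols. Build mm9 and the tools bcl2fastq 1.8.4, TopHat, Cufflinks and DESeq are given per the submitters' processing notes; strand handling is not given in the sources used here. The authors deposited FPKM with 95% intervals per gene and per isoform, with coverage signal and transcript length (another column) per isoform. The authors' deposited table of the series holds mean normalized counts (a signal with no per-library value), the fold change as a ratio, its log2 value and p-values.

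From these, 306 of 23699 rows, whose status was not OK throughout, were left out, rows of a symbol were summed, and 13997 symbols with a mean of at least 0.5 FPKM entered limma 3.58.1 under R 4.3.3 as log2(FPKM + 0.5), with trended variance and Benjamini-Hochberg adjustment over all of them. No count test was run, since the unit is FPKM. The spread that p-values measure here is that of the libraries and may be technical, and 2 libraries against 2 limit the precision. The fit was tested on simulated data. Implied fragments come from the width of the deposited 95% interval (86.9% of those under 50 in control 1 lay within 0.05 of a whole number); they and the intervals cover counting error only. Upstream sequence was read from the NCBIM37 genome, the same assembly as mm9; strands are from GENCODE vM1, whose transcript starts matched 20 of 30 member starts to the base. A start shared by several transcripts was counted once. No window was used on chromosome 18 or for genes without a single strand in GENCODE, and 23785 starts were searched. Members and lists were chosen with earlier results of these data known. All 30 members are named; of other lists, up to 4 with the smallest p and 3 most abundant could be named, and Hand2, Gfra1, Gfra2, Gdnf and Erbb2 are given for their role beside a member, and these and other list genes named here were in part chosen after their values were seen. Some list genes are not reported here. The alternatives were another pseudocount, filter or scaling, another variance model or row handling, the replicate number, each library left out, and the authors' deposited table.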

Additional observations from a re-analysis of the deposited data

How the results depend on the processing

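Among members, calls over all genes stayed at 0 under every alternative run except 1: without control 1, Phox2a passed. The number of all genes past the threshold, 9 in the comparison as reported, was 3 after median ratio rescaling, 2 after quantile normalization, 2 with no filter, and 8 to 362 with each library left out in turn. With 1 library left out, the neuron members passing numbered 0 to 1, the lone library being assumed to vary like the other group. The glia median (−0.47) was −0.62 with a pseudocount of 0.1, −0.33 with a pseudocount of 1, −0.40 with a minimum mean of 1 FPKM, −0.36 after median ratio rescaling, −0.34 after quantile normalization and −0.57 to −0.40 with each library left out. The neuron median ran from −0.66 to −0.18 with each library left out. With the replicate number as a block 195 genes passed, among them 0 members; same-numbered libraries did not deviate together (r = −0.00217 over 13997 genes), so the numbers are not taken as pairs.

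Of the members, 8 changed sign under some alternative. Elavl4 was at 0.057 after median ratio rescaling, 0.087 after quantile normalization and 0.13 in the authors' deposited table. Nos1 was at 0.0059 with a pseudocount of 0.1, 0.092 after median ratio rescaling, 0.083 after quantile normalization and 0.37 in the authors' deposited table. With each library left out, log2 changes ran from −0.22 to 0.078 for Elavl4, −0.23 to 0.23 for Nos1, −0.73 to 0.14 for Gap43, −0.086 to 0.16 for Nefm, −0.036 to 0.14 for Slc18a3, −1.66 to 0.68 for Cartpt, −0.84 to 0.027 for Nmu and −0.71 to 0.095 for S100b, and from −1.48 to −0.63 for Phox2a. The cause was not tested. Depth limits Chat, Elavl3, Fabp7, Phox2a, Nmu and Cartpt most, each with 7 or fewer implied fragments in mutant 1.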

Other observations

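Receptors for the transmitters named above were measured beside their ligands. Vipr1, the VIP receptor that the epithelium also carries, stood at 46.8 and 54.1 FPKM in the controls and at 32.9 and 41.6 FPKM in the mutants, and Vipr2, the VIP receptor of muscle, at 4.58 and 6.87 FPKM in the controls and at 2.93 and 4.40 FPKM in the mutants. Both mutants lay below both controls in each, as in 35.1% of all tested genes, with a limma adjusted p of 0.825 in each. Chrnb4, the nicotinic subunit that pairs with Chrna3, stood at 6.56 and 8.49 FPKM in the controls and at 4.45 and 7.03 FPKM in the mutants, and so above Chrna3 in FPKM in every library. The subunit genes of the nitric oxide receptor, Gucy1a3 and Gucy1b3, stood at 4.92 to 6.99 and at 5.03 to 7.79 FPKM. The neuromedin U receptors Nmur1 and Nmur2 stood under 0.2 FPKM in each library, from 5 or fewer implied fragments.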
